A study of Sus scrofa with 4 samples.

Results

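The genes of cell division and DNA replication were followed across 4 single-colour Agilent porcine expression arrays, 1 for each culture condition of a porcine intramuscular fat cell line. Members were chosen by gene name: every name on the array that starts like a cyclin, cyclin-dependent kinase (CDK), CDK inhibitor, CDC or CDCA protein, centromere protein, kinesin, MCM, Aurora or Polo-like kinase, RFC, RRM or ORC gene, plus a short set of single names such as PCNA, PBK and TOPOII. The rule found 83 of 34853 gene names, read by 159 probes, and where a gene had several probes the brightest stood for it. Since the rule reads only names, 30 of the 83 belonged to other functions such as cargo transport by kinesins or signalling by CDC42. They were kept as members and described apart.

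The PIP group was the undifferentiated preadipocyte line, started from the longissimus thoracis muscle of a female Duroc pig and used at passages 26 to 35, grown in medium with 10% fetal calf serum. The pMA group was the same line after 4 days in differentiation medium, which holds 10% FBS, 50 ng/ml insulin, 0.25 μM dexamethasone, 2 mM octanoate and 200 μM oleate, applied to cells that had been confluent for 4 days. The other 2 groups were pMA cells stimulated for 12 h, one with 100 μM serotonin (5-HT) and one with 2.5 μg/ml TNF-a. RNA was pooled within each group and hybridised to 1 array, so no difference between groups could be tested, and each ratio below compares 2 arrays. How dense the PIP cells were at harvest is not given in the sources used here, so the time since confluence, the change of medium and differentiation cannot be told apart. In a bulk RNA pool, fewer dividing cells and less RNA per dividing cell cannot be told apart either.

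A cell divides by copying its DNA and then separating the copies. Origin recognition (ORC) proteins, CDC6 and the MCM helicase license replication origins, CDC45 helps to fire them, and the sliding clamp PCNA with its loader (RFC) serves the fork. Cyclins switch on CDKs, CDK inhibitors hold them back, and the Aurora and Polo-like kinases, centromere proteins and mitotic kinesins build the spindle and pull chromosomes apart. Transcripts of many of these genes appear only in S, G2 or M phase, so that in a mixed culture they are widely used as markers of dividing cells. Preadipocytes stop growing at confluence, and some preadipocyte lines go through further divisions before they become fat cells.

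Levels are given as the log2 of the background-corrected signal after scaling each array to its 75th percentile, so that 0 is the 75th percentile of that array. A level can be compared between arrays for 1 gene, not between genes, whose probes differ. The scanner software marks whether a spot is well above background. Where a probe passed this mark on 1 array of a pair and failed it on the other, the change is a lower bound, written as "at least"; where it failed on both, no ratio is given. Between 56.5% and 66.0% of all probes were well above background, and so were 78 of the 83 members in PIP cells, 69 in pMA, 70 with serotonin and 76 with TNF-a. Repeated spots of 1 probe differed by an SD of 0.110 to 0.149 log2 units within an array. Pairs of probes with the same sequence gave log2 ratios of pMA to PIP that differed by 0.06 at the median and by 0.56 at most (131 pairs), so none differed by 2-fold. This is the spread within arrays; the spread between cultures was not measured. All 4 arrays lay on 1 slide.

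Adipocyte markers followed the labels in part. CD36 was 36.0-fold and PLIN2 8.78-fold higher in pMA than in PIP cells, and PPARG, the master regulator of fat cell formation, was 2.10-fold higher. FABP4, the fatty acid binding protein of adipocytes, was at least 8.48-fold higher in pMA than in PIP, and was 6.83-fold lower with serotonin than in pMA. CIDEC was 14.7-fold higher in pMA than in PIP, while LPL (1.30-fold) and LEP (1.24-fold) were higher by less than 2-fold. ADIPOQ, CEBPA and PLIN1 were not well above background in pMA, although ADIPOQ was in PIP (-4.53). Summed over the list on the linear scale, in multiples of the 75th percentile, adipocyte markers read 3.16 in PIP, 16.2 in pMA, 39.4 with serotonin and 22.8 with TNF-a, and preadipocyte and fibroblast markers 458, 545, 411 and 460. The brightest probes weigh most in such a sum, and FABP4 with serotonin went against it. The sums for the other lists ran from 1.61 to 3.11 (macrophages or leukocytes), 0.476 to 1.57 (endothelium), 6.98 to 12.3 (muscle) and 0.0988 to 0.183 (epithelium). For macrophages or leukocytes 2 of 3 markers read well above background in every group, for endothelium 2 or 3 of 4, for muscle 3 of 5, and for epithelium 1 of 4 in PIP and pMA, 2 of 4 with serotonin and 3 of 4 with TNF-a. CD163, CDH5, MYOD1 and MYF5 were not well above background on any array. What part other cell types had in the results below was not tested.

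A set of mitotic and replication genes, led by TOPOII, CCNB1, CDC20 and PBK, was far lower in pMA than in PIP cells, while most members differed by less than 2-fold. A ratio was obtained for 78 of the 83 members. Of these, 24 were at least 2-fold lower in pMA, the fold cutoff of the methods, and 17 were at least 4-fold lower. The share of all gene names at 4-fold was not counted. A bound stood behind 6 of the 24. Only 4 members were at least 2-fold higher. Among all 18635 gene names with a ratio, 3.56% were at least 2-fold lower and 9.92% at least 2-fold higher, against 30.8% and 5.13% of the members with a ratio. The median log2 ratio of those members was -0.42, and that of all gene names was 0.12. Without the names of other functions, 23 of 51 were at least 2-fold lower and the median was -0.86.

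**Figure D1:**
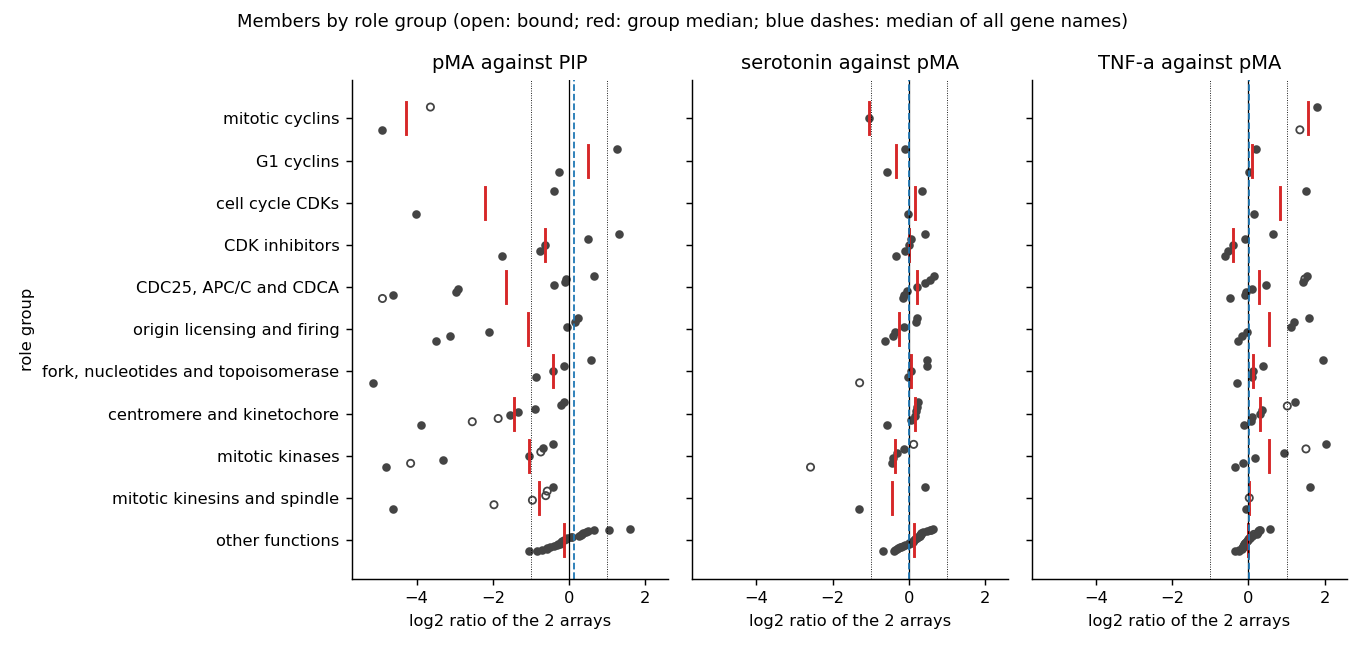
Log2 ratio of 2 arrays for each member with a ratio, by role group, in pMA against PIP, serotonin against pMA and TNF-a against pMA (points: measured ratios; open circles: bounds; red bars: medians of the groups; blue dashes: median of all gene names; dotted lines: 2-fold). In pMA against PIP the long tail to the left holds members of 9 role groups, and the 27 names of other functions with a ratio sit between -1.04 and 1.61.

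Mitotic cyclins and their kinase were among the members that differed most. CCNB1, the B-type cyclin that carries cells into mitosis, read 3.26 in PIP, -1.65 in pMA, -2.70 with serotonin and 0.15 with TNF-a. That is 30.0-fold lower in pMA than in PIP, and CCNB1 was highest in PIP, next with TNF-a and lowest with serotonin. Its partner CDK1 read 2.78, -1.24, -0.90 and 0.28 in the same order of groups, 16.2-fold lower in pMA. CCNB2, a second B-type cyclin, read -0.78 in PIP and -3.06 with TNF-a but was not well above background in pMA (-4.41) or with serotonin (-5.27), so that it was at least 12.4-fold lower in pMA. CCNA1, an A-type cyclin of germ cells, was not well above background on any array.

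The D cyclins and CDK4, which act in G1, did not differ in this way. CCND3 was 2.38-fold higher in pMA than in PIP, with levels of 0.75 in PIP, 2.00 in pMA, 1.45 with serotonin and 2.21 with TNF-a. CCND2 lay between 5.65 and 6.00 on all arrays (log2 ratio of pMA to PIP -0.25), and CDK4 between 3.86 and 4.25 (-0.38). Both differed by less than 2-fold in every comparison.

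CDK inhibitors differed in both directions. CDKN2B (p15), which blocks CDK4 and CDK6, was 2.50-fold higher in pMA, reading -3.67 in PIP, -2.35 in pMA, -1.92 with serotonin and -2.98 with TNF-a. CDKN3, a phosphatase that acts on CDKs, was 3.39-fold lower, reading 3.35, 1.59, 1.50 and 2.24. CDKN1A (p21) read 8.72 in PIP, 9.22 in pMA, 9.23 with serotonin and 8.68 with TNF-a, a log2 ratio of 0.50 between pMA and PIP. CDKN1B (p27) read 3.80, 3.16, 2.83 and 2.75, and CDKN2D (p19) had a log2 ratio of -0.77. These 3 stayed under 2-fold between pMA and PIP.

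Of the 8 CDC and CDCA members grouped by name with CDC25 and the anaphase-promoting complex, 4 were at least 2-fold lower in pMA. CDC20, the activator of the anaphase-promoting complex, read 0.27 in PIP and -3.16 with TNF-a and was not well above background in pMA (-4.63) or with serotonin (-5.13). It was at least 30.0-fold lower in pMA than in PIP. CDCA3, which is linked to mitotic entry, was 24.3-fold lower, and CDC25C, the phosphatase that activates CDK1, was 7.54-fold lower. CDCA7, a chromatin protein of S phase, was 7.76-fold lower by its brightest probe. Under 2-fold were the core subunits of the complex, CDC16, CDC23 and CDC27, with log2 ratios of -0.10, 0.66 and -0.40. The phosphatase CDC14B had -0.08 by its brightest probe and 0.97 by the other.

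Among the 6 members grouped by name under origin licensing and firing, CDC45 and the helicase subunits MCM3 and MCM4 were lower. CDC45 read 1.99 in PIP, -1.50 in pMA, -1.86 with serotonin and -0.38 with TNF-a, 11.3-fold lower in pMA than in PIP. MCM3 read -0.46, -3.59, -4.23 and -2.02, an 8.77-fold difference, and MCM4 read 3.84, 1.74, 1.33 and 2.93, a 4.28-fold difference. PIP was highest and serotonin lowest for all 3 genes. The other members of this group, MCM8, ORC3 and ORC4, had log2 ratios of -0.05, 0.17 and 0.24.

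The largest measured ratio of any member was that of TOPOII, topoisomerase II, which untangles chromosomes and which RefSeq names TOP2A through the probe's accession. TOPOII read 1.33 in PIP, -3.83 in pMA and -1.88 with TNF-a, and -5.47 with serotonin, where it was not well above background. It was 35.9-fold lower in pMA than in PIP. PCNA differed far less, with levels of 1.85, 1.00, 1.48 and 1.39 and a log2 ratio of -0.86. RRM2B, a subunit of ribonucleotide reductase, read 2.50, 3.07, 3.55 and 2.76 (log2 ratio 0.57), and the clamp loader subunit RFC5 had a log2 ratio of -0.41.

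Centromere proteins and mitotic kinases and kinesins split between large and small differences. CENPF, a kinetochore protein of late G2, read 1.29 in PIP, -2.61 in pMA, -3.19 with serotonin and -1.40 with TNF-a, 15.0-fold lower in pMA than in PIP. CENPA, the histone variant that marks centromeres, read -2.10 in PIP and was not well above background on the 3 pMA arrays (-6.15, -7.28 and -6.41), which makes it at least 5.80-fold lower. CENPI was at least 3.64-fold lower and CENPH 2.91-fold lower. CENPC, CENPL and CENPQ had log2 ratios of -0.22, -0.13 and -0.90.

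PBK, a mitotic protein kinase, read 2.33 in PIP, -2.48 in pMA and -0.44 with TNF-a, and -5.05 with serotonin, where it was not well above background. It was 28.0-fold lower in pMA than in PIP. AURKA, the kinase of the spindle poles, read 1.49, -1.82, -2.26 and -0.89, 9.97-fold lower in pMA. PLK1 read -0.47 in PIP, -4.51 with serotonin and -3.13 with TNF-a and was not well above background in pMA (-5.23), at least 17.9-fold lower. The relatives PLK2 and PLK3 differed less. PLK3 read 4.22, 3.19, 2.88 and 2.83, 2.05-fold lower in pMA, and PLK2 read 1.61, 1.18, 1.06 and 1.36, a log2 ratio of -0.42.

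KIF4A, a kinesin that binds chromosomes, read 1.05 in PIP, -3.58 in pMA, -4.88 with serotonin and -1.95 with TNF-a, 24.8-fold lower in pMA than in PIP. KIF23 was at least 3.93-fold lower. KIF11, the motor that separates spindle poles, read -4.07 in PIP and -5.12 with TNF-a and was not well above background in pMA (-5.80) or with serotonin (-6.95), at least 1.48-fold lower. KIF20A, which acts in cytokinesis, read -3.67 in PIP and -4.61 with TNF-a and was not well above background in pMA (-5.07) or with serotonin (-5.34), at least 1.95-fold lower. These 2 probes started near background, so larger differences were not detectable. KIF14 was not well above background on any array.

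Of the 30 names of other functions, 27 had a ratio, and their median log2 ratio was -0.14. KIF7, a kinesin of hedgehog signalling, was 3.06-fold higher in pMA than in PIP, and the CDC42 effector kinase CDC42BPA was 2.07-fold higher. CDC42EP1, another CDC42 effector, was 2.05-fold lower. The other 24 changed by less than 2-fold, among them CDC42, CDK9, CDK16 and KIF5B.

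**Figure D2:**
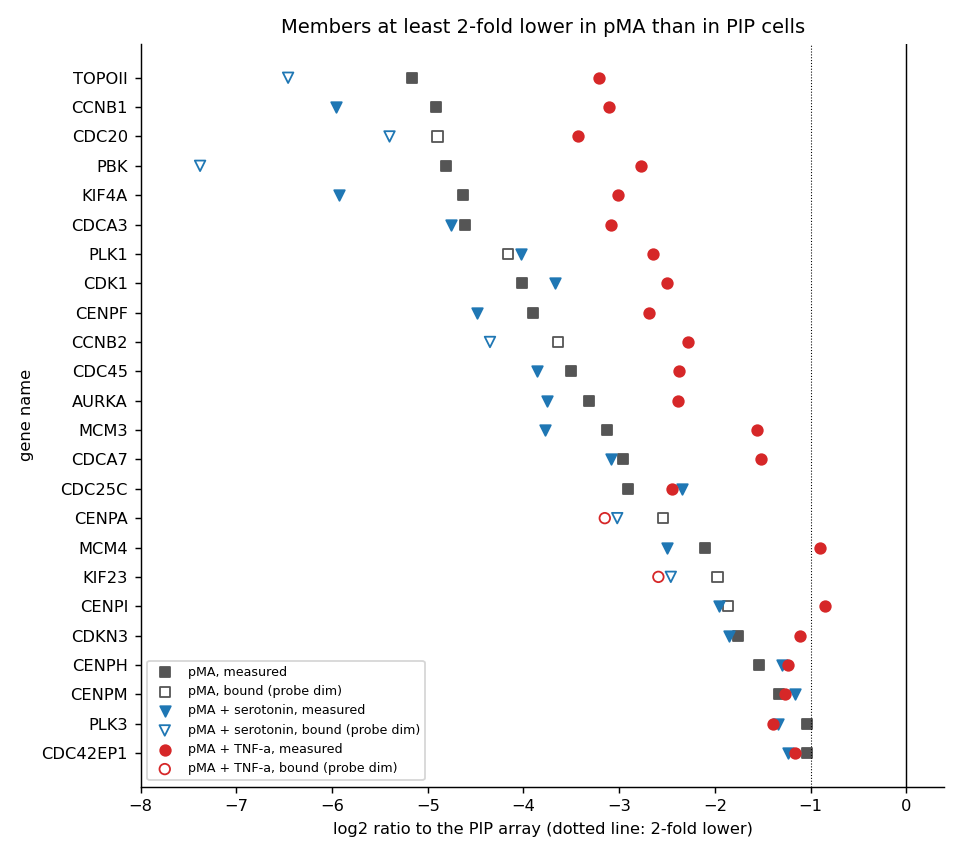
Log2 ratio to the PIP array of the 24 members at least 2-fold lower in pMA, for pMA (squares), pMA + serotonin (triangles) and pMA + TNF-a (circles); open symbols are bounds from probes not well above background on the pMA-type array. From TOPOII down to CENPI the TNF-a circles lie mostly to the right of the squares, with CENPA and KIF23, dim on all 3 pMA arrays, as exceptions.

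These ratios turned on the probe in some genes, and the probe sequences are shown for that reason. Each probe is 60 bases long, and its last 30 bases (31 to 60) are printed 5′ to 3′ as the scanner files give them, with any run of 5 or more A in capitals. The files do not place these probes in a genome. CCNB1 and TOPOII have 1 probe each, CDK1 has 2 that differ in sequence, AURKB has 3, and CENPM has 3 of which 2 are the same.
CCNB1: aacttcggaatactataatatctacaaata
TOPOII: tacattcagtaaatatgagattaggcatga
CDK1, brightest probe: tgtatttttactgttaactctgcttttgtc
CDK1, second probe: tccatattttaatgatttggacaatcaagt
AURKB, brightest probe: ttaataaaggcggaagcgttttgtAAAAAA
AURKB, second probe: gtgtatgtgtagttagaaggaggggtccct
AURKB, dimmest probe: gaaggatctacttgattctggagtatgccc
CENPM, brightest probe: catctgaacaaaggatctgtggctAAAAAA
CENPM, the other 2 probes: ctccggaatgtagaggagtccctgcaccac

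The 2 CDK1 probes gave the same log2 ratio of pMA to PIP, -4.02. All 4 PBK probes lay between -5.24 and -3.79 and all 3 KIF4A probes between -4.63 and -2.18, bounds included. The 3 AURKB probes disagreed. Its brightest probe, which ends in a run of A, read 3.55 in PIP, 2.85 in pMA, 2.43 with serotonin and 2.70 with TNF-a, a log2 ratio of -0.69 between pMA and PIP. The second probe read 1.02 in PIP and -2.06 with TNF-a and was not well above background in pMA (-5.28) or with serotonin (-5.82), at least 50.3-fold lower in pMA. The other probe was at least 6.38-fold lower. By the rule AURKB, the kinase of the chromosomal passenger complex, therefore counts among the members that did not reach 2-fold, although 2 of its 3 probes did.

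CENPM went the other way. Its brightest probe, which also ends in a run of A, gave -1.33, and the other 2 probes, of 1 sequence, gave 0.20 and -0.16. A run of 5 or more A within the last 10 bases occurred in 13 of the 159 member probes (8.18%) and in 7.0% of all probes on the array. It was present in the brightest probe of 10 members. What part such runs had in the signal was not tested. For CDCA7, 2 overlapping probes gave -2.96 and -3.05, while another probe, not well above background in PIP, was at least 1.67-fold higher in pMA. For ORC4, the brightest probe gave 0.24 and the other 3 gave -0.42 to -0.60. Of the 36 members with 2 or more probes that gave a ratio, 24 had all probes on 1 side of 0.

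**Figure D3:**
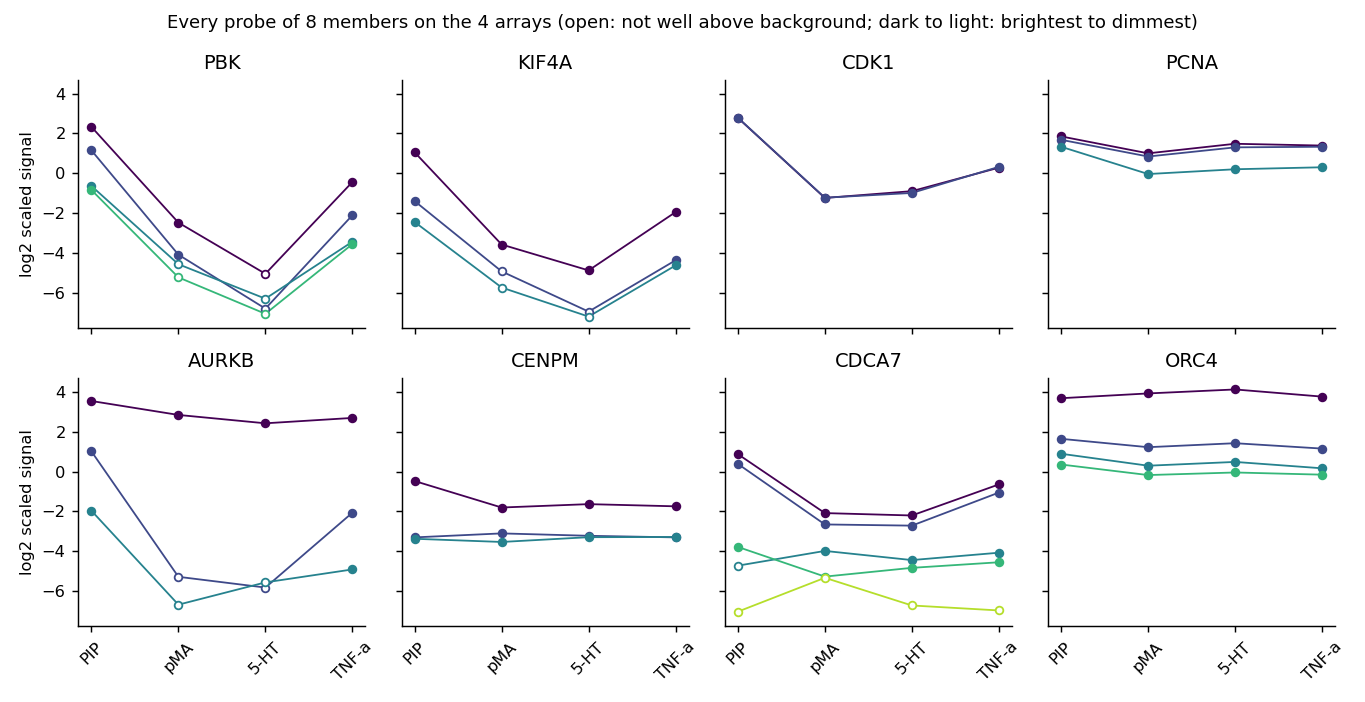
Log2 scaled signal of every probe of 8 members on the PIP, pMA, pMA + serotonin (5-HT) and pMA + TNF-a arrays (1 line a probe, dark to light from the brightest to the dimmest; open points not well above background). The probes of PBK, KIF4A, CDK1 and PCNA run in parallel, whereas the brightest probe of AURKB stays between 2.43 and 3.55 as the other 2 drop below background in pMA.

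Some names did not stand for the gene a reader would take them for. The files describe both MKI67 probes as Ki-67, but their accession belongs to NIFK, a protein that binds Ki-67, in the RefSeq table, so the values under MKI67 (4.74 in PIP, 4.33 in pMA, 4.77 with serotonin and 4.27 with TNF-a) were not read as the proliferation marker Ki-67. All 4 RFC4 probes are described in the files as the RNA-binding protein IGF2BP2, and the brightest read 3.94, 3.81, 3.79 and 3.95. Neither name passed 2-fold in any comparison. Of 54 textbook names listed for this report, 29 had a probe under that name; the others, CCNA2, CDK2, TYMS and RRM2 among them, were not analysed here under those names.

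With serotonin most members lay near their pMA level, and the share at least 2-fold lower was near that of all gene names. Of 71 members with a ratio between serotonin-stimulated and unstimulated pMA, 4 were at least 2-fold lower and 0 at least 2-fold higher. Among all 19093 gene names with a ratio, 4.74% were at least 2-fold lower and 2.08% at least 2-fold higher, against 5.63% and 0.0% of the members, so the lower share was near the background. The median log2 ratio was 0.05 for the members and 0.01 for all gene names. PBK was at least 5.96-fold lower with serotonin and TOPOII at least 2.45-fold lower. KIF4A (2.46-fold) and CCNB1 (2.07-fold) were lower on 2 measured arrays. None of the 4 passed 2-fold when the background was removed by another method (normexp), which gave log2 ratios of -0.95, -0.56, -0.53 and -0.79. That method was run with an offset, which shrinks the ratios of probes with a low signal. TOPOII and KIF4A read only -3.83 and -3.58 in pMA, so their normexp ratios cannot decide whether they differed by 2-fold. How far the offset lowered the ratios of PBK and CCNB1 was not tested.

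Outside the names of other functions, 42 of 53 members had a ratio, and 38 of these did not pass 2-fold with serotonin. PLK1, one of the 38, is a bound and may differ by more. MCM3 (log2 ratio -0.63), CENPF (-0.58), CCND3 (-0.56) and AURKA (-0.43) were lower, and CDC23 (0.67), CDC25C (0.57), PCNA (0.48), CDKN2B (0.43) and CDK1 (0.35) were higher. For 12 members no ratio could be given, because their probes failed the background mark on both arrays, or on 1 array with the other too near it. CDC20 and CCNB2 were among them.

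With TNF-a some of the mitotic and replication genes were higher than in unstimulated pMA. Of 75 members with a ratio between TNF-a-stimulated and unstimulated pMA, 15 were at least 2-fold higher and 0 at least 2-fold lower. That is 20.0% of the members with a ratio, and 2.21% of all 19785 gene names with a ratio were at least 2-fold higher and 1.34% at least 2-fold lower. Bounds stood behind 4 of the 15. The median log2 ratio was 0.08 for the members and 0.01 for all gene names. Outside the names of other functions, 15 of 46 members passed 2-fold and 31 did not, and no name of other functions did.

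The largest differences were in PBK (4.10-fold), TOPOII (3.86-fold), CCNB1 (3.48-fold), KIF4A (3.08-fold), MCM3 (2.98-fold) and CDCA3 (2.88-fold). CDK1 was 2.87-fold higher, CDCA7 2.70-fold, CENPF 2.32-fold, MCM4 2.28-fold and CDC45 2.18-fold. PLK1, CDC20, CCNB2 and CENPI, not well above background in pMA, were at least 2.85-fold, 2.78-fold, 2.55-fold and 2.02-fold higher. AURKA (log2 ratio 0.93), CDKN3 (0.65) and PCNA (0.39) were higher by less than 2-fold. CDKN2B (-0.63), CDKN1A (-0.54) and CDKN1B (-0.41), all inhibitors of CDKs, were lower by less than 2-fold. With normexp 6 of the members were at least 2-fold higher, and over members well above background on all 4 arrays 9 were. The offset in normexp shrinks the ratios of probes with a low signal, and the filter on all 4 arrays drops every bound.

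The 3 comparisons above share the pMA array, so an error in that array enters all of them. The arrays were therefore also compared in ways that leave pMA out. TNF-a was set directly against serotonin, which shares no array with pMA against PIP. Of 76 members with a ratio, 16 were at least 2-fold higher with TNF-a than with serotonin (21.1%) and 2 at least 2-fold lower (2.63%), against 5.08% and 1.82% of all 21864 gene names with a ratio.

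All 16 were among the 24 members lower in pMA than in PIP, of which 22 had a ratio here, so 72.7% of them were higher. Of all 646 gene names that were at least 2-fold lower in pMA than in PIP and had a ratio here, 28.3% were at least 2-fold higher with TNF-a. The 52 other members with a ratio in both comparisons lay between -1.16 and 0.76. PBK was at least 24.4-fold and TOPOII at least 9.46-fold higher with TNF-a than with serotonin, KIF4A 7.57-fold, CCNB1 7.20-fold and MCM3 4.63-fold. CCNB2 was at least 4.18-fold higher, CDC20 at least 3.91-fold, CENPF 3.48-fold, CDCA3 3.20-fold and MCM4 3.03-fold. CDC23 (2.24-fold) and CDKN2B (2.08-fold) were lower with TNF-a than with serotonin. Their share of the members, 2.63%, was near the 1.82% of all gene names. Neither passed 2-fold with normexp, which shrinks the ratios of probes with a low signal.

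**Figure D4:**
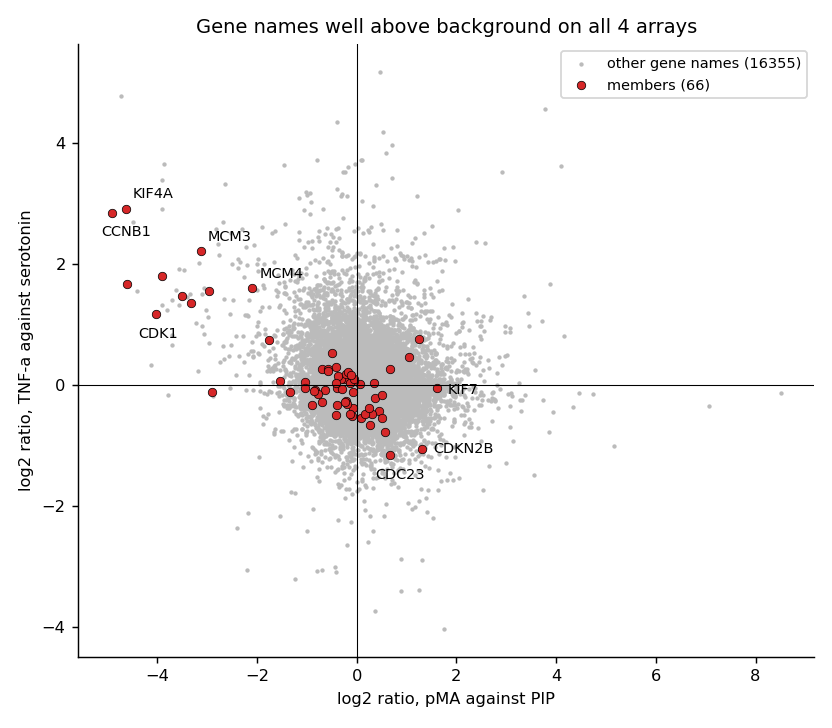
Log2 ratio of TNF-a to serotonin (vertical) against log2 ratio of pMA to PIP (horizontal) for gene names well above background on all 4 arrays, with 66 members in red and 16355 other names in grey. The members far to the left, lower in pMA than in PIP, lie mostly above 0, and CDKN2B and CDC23 lie at the lower right.

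Over the 66 members well above background on all 4 arrays, the log2 ratios of these 2 comparisons had a Pearson correlation of -0.82 and a Spearman correlation of -0.56, and over all 16421 such gene names -0.13 and -0.07. These correlations run across genes, which are not independent replicates, and all arrays share 1 slide. The 6 members lower in pMA that stayed under 2-fold between the stimuli were CDC25C, CENPH, CDKN3, CENPM, PLK3 and CDC42EP1. CDC25C read -0.20 in PIP, -3.11 in pMA, -2.54 with serotonin and -2.64 with TNF-a, and CENPH read 2.09, 0.55, 0.79 and 0.86, so that the stimulated arrays lay close together for both.

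The members lower in pMA were also compared with PIP on the stimulated arrays. Of the 24 members lower in pMA, 22 were at least 2-fold lower than PIP on each of the 3 pMA arrays, counting bounds. Of all 664 gene names at least 2-fold lower in pMA than in PIP, 53.8% were at least 2-fold lower on both stimulated arrays too. These ratios share the PIP array. The exceptions were MCM4 and CENPI, for which the TNF-a array reached log2 ratios of -0.90 and -0.85 to PIP. Against PIP the median log2 ratio of the 24 was -3.23 in pMA, -3.71 with serotonin and -2.42 with TNF-a. Of the 16 well above background on every array, 10 had the order PIP, TNF-a, pMA, serotonin from highest to lowest. Serotonin was lowest for 11, pMA for 4 and TNF-a for 1. These members were chosen for a lower level in pMA than in PIP, so that part of the order was fixed beforehand. Shares of this order and of the lowest array among all gene names chosen the same way were not counted. The counts are therefore not read as particular to these members.

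Genes of the same processes whose names the rule does not reach were read from 3 lists. The lists were chosen with earlier results of these data known, so they are not independent support. Of these, 46 of 103 names were on the array and 29 of the 46 were at least 2-fold lower in pMA than in PIP, and 0 at least 2-fold higher. The shares of all gene names with a ratio were 3.56% lower and 9.92% higher. In mitosis 18 of 19 were lower (median log2 ratio -2.52). SPAG5, a spindle protein, was 22.5-fold lower, BIRC5 (survivin), a partner of AURKB, was 21.2-fold lower, and DLGAP5 was at least 23.1-fold lower. BUB3, at -0.50, was the 1 that stayed under 2-fold.

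In replication 5 of 15 were lower (median -0.87), led by UHRF1, which keeps DNA methylation through replication (6.77-fold), and the histone chaperone ASF1B (6.38-fold). Among regulators 6 of 12 were lower (median -1.24). MYBL2, a transcription factor of G2 and M genes, was 14.9-fold lower, and E2F8 at least 9.52-fold lower. The transcription factor E2F1 (log2 ratio 0.22) stayed under 2-fold.

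With TNF-a 9 of 45 of these genes with a ratio were at least 2-fold higher than in pMA and 0 at least 2-fold lower. Among all gene names with a ratio, 2.21% were higher and 1.34% lower. Of the 9, 7 were in mitosis, with SPAG5 at a log2 ratio of 1.82 and DLGAP5 at a bound of 1.57, 1 was UHRF1 (1.37) and 1 was MYBL2 (1.04). With serotonin 1 of 42 was at least 2-fold higher and 0 at least 2-fold lower. Among all gene names with a ratio, 2.08% were higher and 4.74% lower, so the higher share was near the background. The 1 gene was MYC, a growth-promoting transcription factor, which read 2.74 in PIP, 1.09 in pMA, 2.33 with serotonin and 1.55 with TNF-a. MYC was thus 2.36-fold higher with serotonin than in pMA, while SPAG5 (-0.88), E2F1 (-0.88) and UHRF1 (-0.78) were lower by less than 2-fold. TOP1 (0.75) and the checkpoint kinases CHEK1 (0.70) and CHEK2 (0.72) were higher by less than 2-fold with serotonin.

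**Figure D5:**
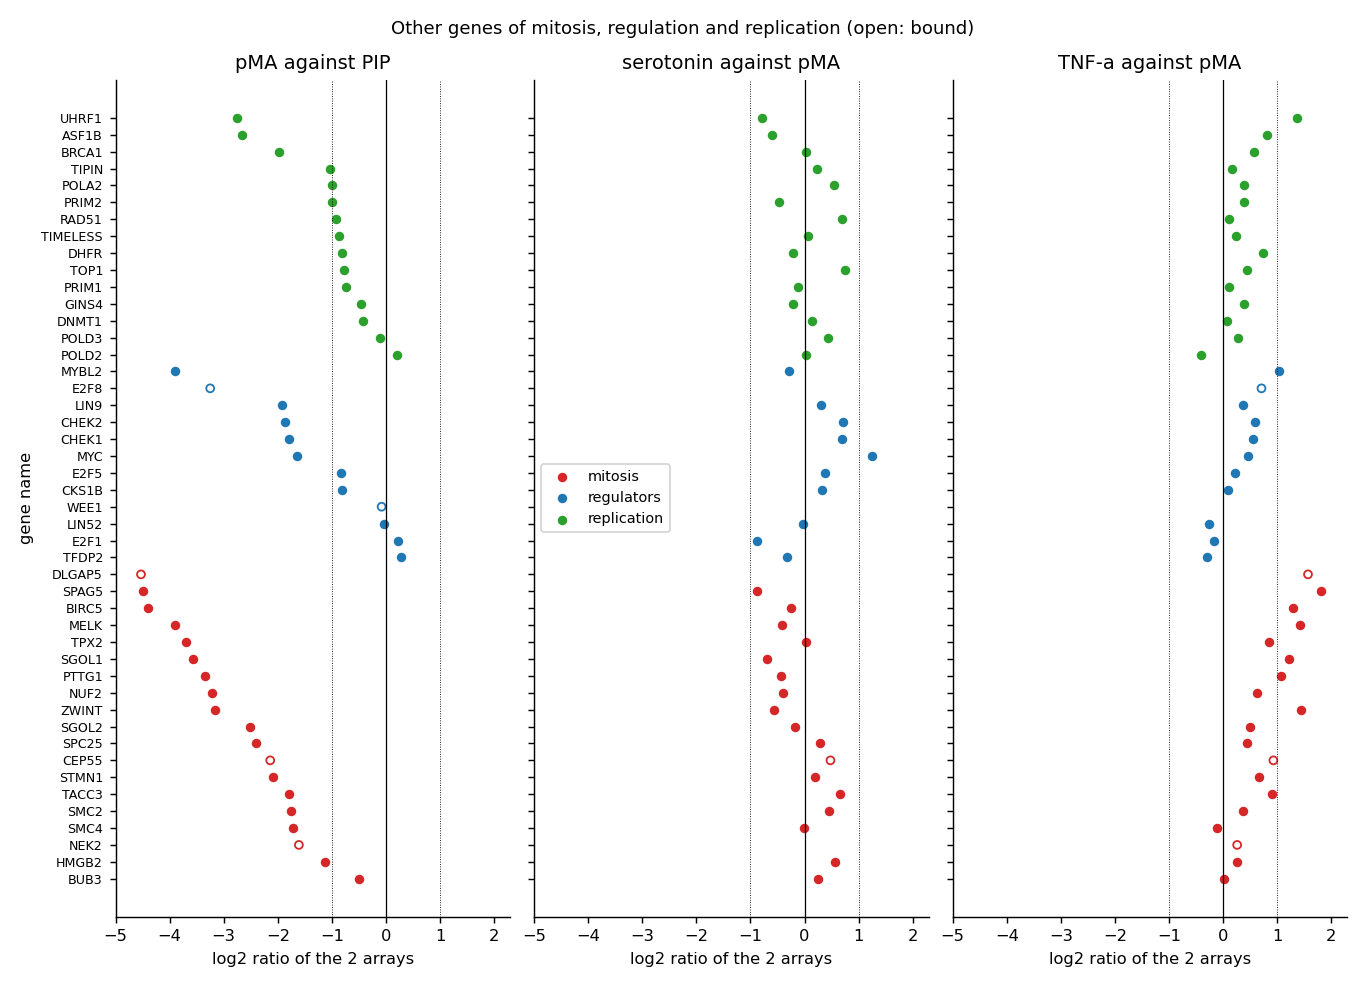
Log2 ratio of 2 arrays for 46 genes of mitosis (red), regulation (blue) and replication (green) outside the naming rule, in pMA against PIP, serotonin against pMA and TNF-a against pMA (open circles: bounds; dotted lines: 2-fold). In mitosis 18 of 19 genes lie left of the lower 2-fold line in pMA against PIP, and 7 lie right of the upper line with TNF-a.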

How the data were processed

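Per the labels and the study's methods, 200 ng of RNA pooled per group was labelled with Cy3 and hybridised to 1 Agilent 4 × 44K porcine array a group; the methods also describe a mouse array and a scan with 2 dyes, but the deposited scanner files are single-colour porcine arrays. The deposited intensity is the processed signal of Agilent Feature Extraction (10.7.3.1 in the submitters' processing notes), already background-subtracted by the authors' scanner software. The labels give serotonin as 100 μM per ml; it is read here as the 100 μM of the methods.

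Control spots and spots marked as outliers (1 to 12 an array) were left out, spots of 1 probe were averaged, and log2 signals were centred on the 75th percentile of each array (43803 spots, 43603 probes). Python 3.11.15 (numpy 2.4.6, pandas 2.3.3) and limma 3.58.1 in R 4.3.3 (normexp with an offset of 50 only) were used. The call was a 2-fold ratio; no test is possible with 1 array a group, and the number of arrays limits the precision. Bounds were taken against the lowest signal among probes well above background, or the dim probe's own signal if higher. The script was tested on simulated data. Names that the text gives are a list of canonical members, up to 10 members with the largest changes past 2-fold each way per comparison, and the largest change of each role group; from the outside lists, the largest changes each way. ORC4, CDCA7, CENPM, MYC and the other genes shown for disagreeing probes or as exceptions were chosen after their values were seen. The members, role groups and lists were chosen with earlier results of these data known. The comparison of TNF-a with serotonin, the names reached by accession and the setting without MKI67 and RFC4 were added after seeing the data. The deposited table of values for the whole series held the same intensities divided by 1 constant an array, on a linear scale (column medians 0.0581, 0.0766, 0.0735 and 0.0797), and served as an alternative. 1 gene of the outside lists is not reported here.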

Additional observations from a re-analysis of the deposited data

How the results depend on the processing

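No paired analysis was possible because each group has 1 array, and for the same reason no replicate could be left out. Promoter motif shares were not run, since no promoter sequences were used here. The deposited table, the median over a gene's probes, the names reached by accession and the set without MKI67 and RFC4 left every count within 1.5 times its value. For pMA against PIP, the median log2 ratio of the members (-0.42) became -0.77 after scaling to the array median, -0.12 after scaling to spike-in controls and -0.86 without the names of other functions. These scalings moved the median of all gene names from 0.12 to -0.22 and 0.44, and the median of the members relative to it was -0.54, -0.55 and -0.56. The split of calls was 4 higher and 24 lower, 1 and 32 after scaling to the median, and 1 and 21 with normexp. The log2 bounds of CDC20 (-4.90) and CCNB2 (-3.64) in pMA against PIP became -2.90 and -1.96 with normexp. At a 4-fold cutoff 17 members passed for pMA against PIP, 1 for serotonin, 1 for TNF-a and 6 for TNF-a against serotonin. Shares of all gene names at that cutoff were not counted. The serotonin count of 4 became 0 with normexp, 7 with no filter on dim probes and 2 over members well above background on all 4 arrays. The TNF-a count of 15 became 6 with normexp and 9 over members well above background on all 4 arrays. The filter on all 4 arrays drops every bound, with TNF-a those of CCNB2, CDC20, CENPI and PLK1. It also drops PBK and TOPOII, which were not well above background with serotonin. The offset in normexp shrinks the ratios of probes with a low signal. How far the offset lowered the counts was not tested. Over the other scalings, normexp, the deposited table and the median over probes, no member past 2-fold changed direction, and 19 of 28 stayed past 2-fold in pMA against PIP, 0 of 4 with serotonin, 5 of 15 with TNF-a and 10 of 18 in TNF-a against serotonin. Low pMA levels lay near background, so falls past the bounds given were not detectable.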

Other observations

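A few genes that the naming rule is meant for carry another name on the array and were reached only through a RefSeq accession or the symbol in the probe description (20 probes, 6 added gene names). PCLAF, the PCNA-associated factor of S phase, read 3.66 in PIP, -1.06 in pMA, -3.95 with serotonin and 0.83 with TNF-a, all well above background. Its 3 probes gave log2 ratios of -4.73 to -3.85 for pMA against PIP and of -3.05 to -1.38 for serotonin against pMA. CDC6, which loads the MCM helicase, read -0.48, -3.31, -4.05 and -1.47 by 1 probe, so that both genes ran in the order PIP, TNF-a, pMA, serotonin. CDK2, the kinase of S phase entry, read 1.11, 0.23, 0.62 and 0.34 by the brightest of 6 probes, which ranged from -1.57 to -0.29 for pMA against PIP. KIF26B, a kinesin outside mitosis, was higher in pMA than in PIP, with a log2 ratio of 1.73 and levels of 0.05, 1.78, 2.03 and 1.12.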
